A study of Arabidopsis thaliana with 24 samples.

Results

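STZ (salt tolerance zinc finger, also called ZAT10, locus AT1G27730) and ZAT12 (also called RHL41, locus AT5G59820) encode zinc finger repressors that answer cold. They were followed here through the first day of chilling in shoots and roots of Arabidopsis thaliana, ecotype Col-0. The 2 genes were taken by name, out of 22746 probe sets that are not controls on the Affymetrix ATH1 array, of which 16073 were bright enough to be tested. The platform annotation pairs the STZ probe set, 261648_at, with that gene alone. It lists no gene for the probe set read as ZAT12, written here with its array as ATH1.247655_at, whose identity therefore rests on the probe set number given for that gene and not on the annotation. Both probe sets had an intensity above 30 on all 24 arrays, so neither depended on the filter for dim probe sets.

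Before the treatment the plants had a 16 h day, 24 °C, 50% humidity and Murashige and Skoog medium. When they were 16 days into the protocol and had had light for 3 h that day, their boxes were set on ice in a room at 4 °C under a room light of 20 and an added lamp of 40 µEinstein per cm2 and second, as the labels write the unit. The 12 groups were shoots and roots after 0.5, 1, 3, 6, 12 and 24 h, with 2 arrays of total RNA each, from wild-type plants with no transgene or mutation named. No group outside the cold is among these samples, so each change is given against 0.5 h in the cold and a rise during the first 0.5 h cannot be seen. The labels do not state the light before the treatment, so an effect of light cannot be told apart from that of temperature. By the clock the 0.5, 1 and 24 h samples were taken 3.5, 4 and 3 h after lights came on. The 3, 6 and 12 h samples followed 6, 9 and 15 h after lights on, and there the hours of cold cannot be told apart from the hour of the day. Whether paired arrays hold RNA of separate cultures is not in the labels, so the p-values speak for the spread among these arrays alone, and that spread may be technical.

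Both proteins belong to the C2H2 zinc finger family, whose fingers bind DNA, and to a subclass of it that carries a short repression motif (the EAR motif), through which corepressor proteins are recruited. In Arabidopsis their transcripts are known to rise within minutes to hours of cold, salt, high light, wounding and oxidative stress. STZ is known as a repressor phosphorylated by MAP kinases. ZAT12 is known for its part in the response to hydrogen peroxide and high light, and plants made to overproduce it are known to have lower transcript levels of the CBF genes, the main switches of cold acclimation.

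The values are MAS5 probe set intensities, scaled by the authors so that every array has the same trimmed mean, and log2 differences are of (intensity + 10). Median intensity ranged from 29.8 to 47.8 across arrays. Between the 2 arrays of a group r over all probe sets was 0.951 to 0.991, and precision is limited by having 2 arrays a group. The tissue labels matched their markers: on shoot arrays the mean log2 level of 3 measured green shoot markers was 11.33 to 12.36, against 4.88 to 6.72 in roots. For 3 root markers it was 7.53 to 8.49 in roots against 5.58 to 6.41 in shoots. In the control for 25S rRNA both 0.5 h shoot arrays were low, at 212 and 246, while shoot arrays of later times had 889 to 1862. Its part in the changes from 0.5 h was not tested, and values against 1 h are given beside them.

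In shoots STZ rose steeply to 3 h and then fell to below its starting level. Its intensity was 148 and 323 on the 2 arrays at 0.5 h and 545 and 495 at 1 h. It was 2089 and 2135 at 3 h and 1718 and 1203 at 6 h. By 12 h it was 279 and 269, and at 24 h 122 and 124. The 3 h arrays were thus the highest and the 24 h arrays the lowest of all shoot arrays, and the 12 h arrays lay between the 2 arrays of 0.5 h. The mean at 24 h was 5.81% of the mean at 3 h.

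ZAT12 in shoots also peaked at 3 h but left its peak sooner and did not return to its starting level. Its intensity was 36.7 and 56.3 at 0.5 h, on arrays with a median of 37.6 and 38.6, and 176 and 177 at 1 h. It was 671 and 644 at 3 h and 257 and 158 at 6 h. At 12 h it was 134 and 168, and at 24 h 282 and 245. Both 24 h arrays were above both 12 h arrays, and every array from 1 h on was above both 0.5 h arrays. The mean was 31.6% of the peak mean at 6 h, 23% at 12 h and 40% at 24 h.

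In roots STZ rose to a broad maximum at 3 and 6 h, then came down but stayed above its 0.5 h level. Its intensity was 571 and 492 at 0.5 h, 1255 and 1033 at 1 h and 2182 and 2610.3 at 3 h. At 6 h it was 2567 and 2569, the closest pair of all 12 groups. At 12 h it was 1868 and 1399, and at 24 h 1229.9 and 1346. All arrays from 1 h on were above both 0.5 h arrays. The 24 h mean was 50.2% of the 6 h mean, and the 24 h arrays overlapped those of 1 h.

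ZAT12 in roots rose to 3 h and stayed high up to 24 h. Its intensity was 121 and 99.3 at 0.5 h, 263 and 258 at 1 h and 867 and 1059 at 3 h. It was 1249 and 1284 at 6 h, 1131 and 919 at 12 h and 1306 and 1357 at 24 h. The 24 h arrays were the highest of all 24 arrays for this gene. At 12 h the mean was 77% of that at 24 h.

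**Figure D1:**
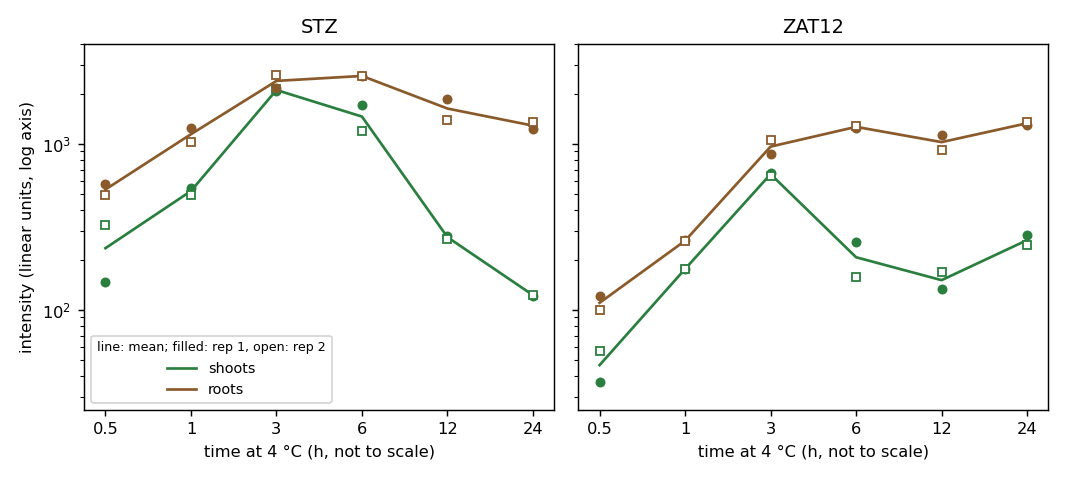
Intensity of STZ (left) and ZAT12 (right) on each array against time at 4 °C, on a log axis, with lines through the means of 2 arrays, filled circles for replicate 1 and open squares for replicate 2. In shoots both peak at 3 h and STZ ends lowest at 24 h, while in roots ZAT12 is highest at 24 h.

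The first question the design puts is how far each gene moved from its level at 0.5 h. At 1 h in shoots both genes rose, where 1.82% of all tested probe sets were called higher (2.82% in either direction). ZAT12 rose by 1.74 ± 0.20 (SE; limma adjusted p = 0.00017), the 20th largest rise of 16073, and STZ by 1.21 ± 0.25 (adjusted p = 0.016). The call on STZ rested on single arrays: without 0.5 h replicate 1 the change was 0.67 (adjusted p = 0.17), and without 1 h replicate 1 it was 1.14 (adjusted p = 0.13). In a fit of the 12 shoot arrays alone STZ kept its change of 1.21 but had an adjusted p = 0.066.

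At 3 h in shoots both genes had risen several fold, against 5.29% of probe sets called higher. ZAT12 rose by 3.59 ± 0.20 (adjusted p = 1.4e-09), the 32nd largest rise. STZ rose by 3.21 ± 0.25 (adjusted p = 9.6e-08), which is 9.26 times its 0.5 h level in intensity + 10. Since ZAT12 starts low, the pseudocount bears on the size of its rise, which was 3.83 with a pseudocount of 1 and 3.18 with one of 30. From 1 h, which leaves out the 0.5 h arrays, the rises were 1.84 ± 0.20 for ZAT12 (adjusted p = 9.6e-06) and 2.002 ± 0.25 for STZ (adjusted p = 4.2e-05), where 2.85% of probe sets were called higher.

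After 3 h the courses in shoots parted. At 6 h both were still up (9.74% of probe sets were called higher), STZ by 2.66 ± 0.25 (adjusted p = 3.5e-07) and ZAT12 by 1.93 ± 0.20 (adjusted p = 1.3e-06). Against 1 h STZ was up by 1.45 at 6 h, whereas for ZAT12 the difference was 0.18 (adjusted p = 0.6). By 12 h ZAT12 was up by 1.53 ± 0.20 (adjusted p = 1e-05; 14% of probe sets were called higher), while for STZ the change was 0.31 ± 0.25 (adjusted p = 0.35). The 12 h values depend on the baseline: against 1 h STZ was lower, at −0.90 (adjusted p = 0.0091) and ZAT12 stood at −0.22 (adjusted p = 0.43). STZ at 12 h also turned with single arrays, to −0.23 (adjusted p = 0.46) without 0.5 h replicate 1 and to a called rise of 0.85 (adjusted p = 0.0062) without 0.5 h replicate 2.

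At 24 h in shoots the genes were called in opposite directions, at a time when 19.2% of probe sets were called higher and 34.3% lower. With arrays centred on their medians, which moves the median of all probe sets from −0.20 to 0.06, 4465 probe sets were higher and 3481 lower. ZAT12 was up by 2.29 ± 0.20 (adjusted p = 5.2e-08), and STZ was lower, at −0.79 ± 0.25 (adjusted p = 0.014). Against 1 h, which lies close to 24 h by the clock, the changes were 0.55 ± 0.20 for ZAT12 (adjusted p = 0.031) and −1.997 ± 0.25 for STZ (adjusted p = 3.8e-06). The fall of STZ from 0.5 h was −1.33 (adjusted p = 1e-04) without 0.5 h replicate 1, −0.25 (adjusted p = 0.37) without 0.5 h replicate 2 and −0.78 (adjusted p = 0.057) without 24 h replicate 1. It was −0.53 (adjusted p = 0.099) with arrays centred on their medians.

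In roots at 1 h neither gene was called against 0.5 h, at a time when limma called 3 of 16073 probe sets (0.0187%) and 366 had an unadjusted p under 0.05. The changes were 1.18 ± 0.20 for ZAT12 (adjusted p = 0.085), the 17th largest rise of all, and 1.09 ± 0.25 for STZ (adjusted p = 0.6), the 21st. For each gene both 1 h arrays lay above both 0.5 h arrays. With so few arrays a group such an order is easily met, and its share among all probe sets was not counted. It is therefore a description and adds nothing to the uncalled changes. ZAT12 passed with an intensity-dependent prior (1.18, adjusted p = 0.0471) and after quantile normalization (1.30, adjusted p = 0.022).

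From 3 h on both genes were up in roots at every time against 0.5 h. The shares of probe sets called higher were 2.13% at 3 h, 5.23% at 6 h, 9.93% at 12 h and 15.5% at 24 h. At 24 h centring on medians turned the split to 4036 higher and 2594 lower. ZAT12 rose by 3.02 ± 0.20 at 3 h (adjusted p = 7.2e-08), the 12th largest rise of 16073, and by 3.41 ± 0.20 at 6 h (adjusted p = 3.6e-09). At 12 and 24 h it was up by 3.10 ± 0.20 and 3.49 ± 0.20 (adjusted p = 5e-09 and 7.2e-10). For STZ the rises at 3 and 6 h were 2.15 ± 0.25 and 2.26 ± 0.25 (adjusted p = 4.1e-05 and 8.2e-06), and those at 12 and 24 h were 1.59 ± 0.25 and 1.26 ± 0.25 (adjusted p = 0.00014 and 0.00055). Against 1 h ZAT12 kept its calls, with 2.31 at 24 h (adjusted p = 1.3e-07), while of the STZ changes only that at 6 h passed (1.17, adjusted p = 0.0076). At 3, 12 and 24 h STZ then had changes of 1.06, 0.50 and 0.18 (adjusted p = 0.0536, 0.16 and 0.6).

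**Figure D2:**
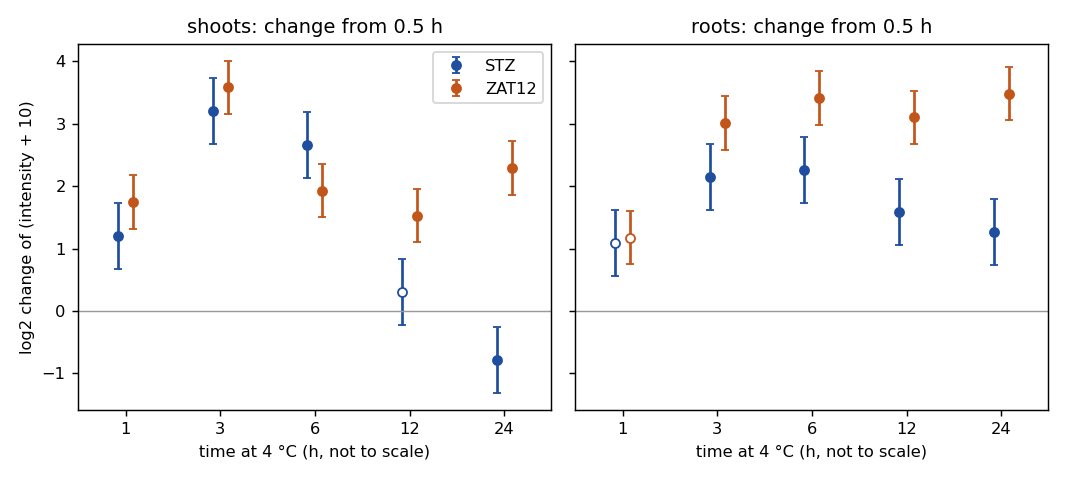
Log2 change of (intensity + 10) from 0.5 h, with 95% confidence intervals from limma, in shoots (left) and roots (right). Filled points have an adjusted p under 0.05; in roots ZAT12 stays between 3.02 and 3.49 from 3 h on, and in shoots STZ goes from 3.21 at 3 h to −0.79 at 24 h.

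Steps between neighbouring times show where each gene turned. In shoots ZAT12 fell between 3 and 6 h by 1.66 ± 0.20 on the log2 scale (adjusted p = 3.2e-05; 2.25% of probe sets were called lower), while STZ had a step of −0.55 ± 0.25 (adjusted p = 0.31). Between 6 and 12 h STZ fell by 2.35 ± 0.25 (adjusted p = 3.9e-06; 10.7% of probe sets were called lower), one of the steepest declines of all, with 99.7% of probe sets ranked above it. ZAT12 had a step of −0.40 ± 0.20 there (adjusted p = 0.2), which passed at −0.74 (adjusted p = 0.028) without 6 h replicate 2. Thus the main decline of ZAT12 was called one interval before that of STZ, although the difference between the genes was not tested.

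The last step in shoots ran opposite ways. Between 12 and 24 h ZAT12 rose by 0.77 ± 0.20 (adjusted p = 0.011; 10.4% of probe sets were called higher), and STZ fell by 1.10 ± 0.25 (adjusted p = 0.0042; 12.4% were called lower). The rise of ZAT12 lost its call without 12 h replicate 1 (0.61, adjusted p = 0.13) and without 24 h replicate 1 (0.67, adjusted p = 0.088).

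In roots a single step was called as deposited, the rise of ZAT12 between 1 and 3 h by 1.84 ± 0.20 (adjusted p = 6.2e-05; 0.902% of probe sets were called higher). STZ had 1.06 ± 0.25 in that step (adjusted p = 0.054), and it passed under other settings, at 1.12 with arrays centred on their medians (adjusted p = 0.038), and at 1.19 without 3 h replicate 1 (adjusted p = 0.037). In the later root steps ZAT12 had 0.40 ± 0.20, −0.31 ± 0.20 and 0.38 ± 0.20 (adjusted p = 0.46, 0.41 and 0.24), with intervals that all lie within −0.74 and 0.83. STZ had 0.11 ± 0.25, −0.66 ± 0.25 and −0.33 ± 0.25 (adjusted p = 0.9, 0.12 and 0.44), and the step from 6 to 12 h passed after quantile normalization (−0.97, adjusted p = 0.028). The step of STZ from 3 to 6 h was −0.02 without 3 h replicate 1.

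**Figure D3:**
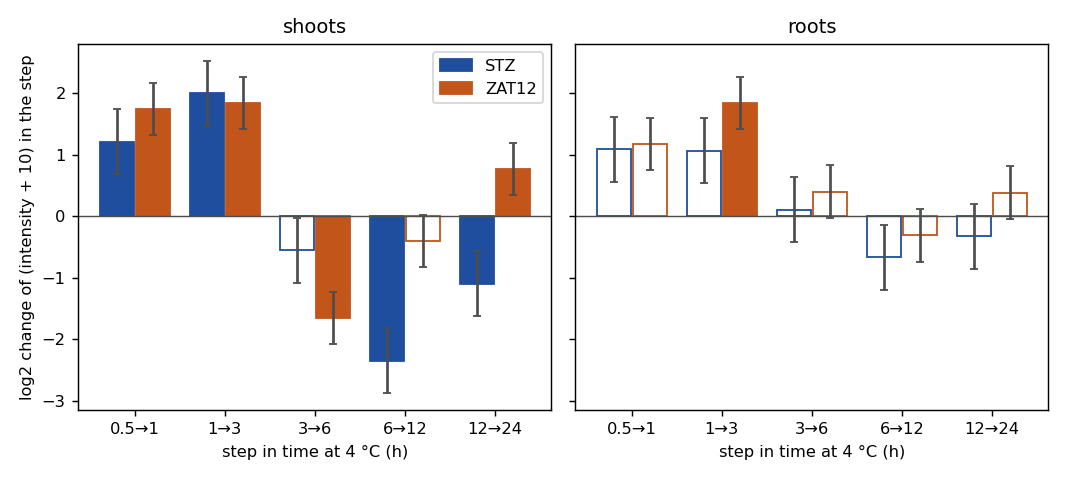
Log2 change of (intensity + 10) in each step between neighbouring times, with 95% confidence intervals, for shoots (left) and roots (right). Filled bars have an adjusted p under 0.05: in shoots ZAT12 drops between 3 and 6 h and STZ between 6 and 12 h, and in roots the one filled bar is the rise of ZAT12 between 1 and 3 h.

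The mean intensity of both genes was higher in roots than in shoots at every time, though for STZ at 3 h the difference was not called. This must be read against a background in which 37.6% to 45.8% of probe sets, depending on the time, were called higher in roots, with a median difference over all probe sets of 0.18 to 0.32. With arrays centred on their medians that median was −0.02 to 0.11, and at 24 h 4677 probe sets were called higher in roots and 4901 lower. In bulk tissue, more cells that hold a transcript and more transcript per cell cannot be told apart. At 0.5 h the difference was 1.24 ± 0.25 for STZ (adjusted p = 0.00031; 44.5% of probe sets were called higher) and 1.11 ± 0.20 for ZAT12 (adjusted p = 0.00011). That of STZ was 0.70 without shoot 0.5 h replicate 1, with an adjusted p = 0.0097.

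The tissues were closest at 3 h for STZ, and at 1 and 3 h for ZAT12. At 3 h STZ had a difference of 0.18 ± 0.25 (adjusted p = 0.55, interval −0.35 to 0.70), which was −0.04 with arrays centred on their medians and a called 0.82 after quantile normalization (adjusted p = 0.01). ZAT12 was higher in roots by 0.54 ± 0.20 at 1 h and by 0.54 ± 0.20 at 3 h (adjusted p = 0.025 and 0.026), where 45.8% and 45.1% of probe sets were called higher. With arrays centred on their medians these became 0.27 and 0.33 (adjusted p = 0.27 and 0.18), and after quantile normalization the 3 h value was 0.84. The call at 1 h was lost without any 1 of its 4 arrays (0.53 to 0.55, adjusted p = 0.07 to 0.085). The call at 3 h was lost without either shoot 3 h array (0.57 without replicate 1 and 0.51 without replicate 2) and without root 3 h replicate 2 (0.39, adjusted p = 0.17).

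From 6 h on the tissues drew apart. ZAT12 was higher in roots by 2.59 ± 0.20 at 6 h (adjusted p = 4.1e-09), with a root mean 6.1 times the shoot mean, where 44.7% of probe sets were called higher. At 12 and 24 h it was higher by 2.69 ± 0.20 and 2.30 ± 0.20 (adjusted p = 2.4e-09 and 2.1e-08). STZ was higher in roots by 0.83 ± 0.25 at 6 h (adjusted p = 0.0073), a call lost with median centring (0.57, adjusted p = 0.062) and without shoot 6 h replicate 2 (0.58, adjusted p = 0.1), and 1.48 after quantile normalization. For STZ the 12 and 24 h differences were 2.52 ± 0.25 and 3.29 ± 0.25 (adjusted p = 9.7e-08 and 3e-09), and at 24 h the root mean was 10.5 times the shoot mean. At 12 and 24 h 43.7% and 37.6% of probe sets were called higher, but only 2.82% ranked above STZ at 24 h.

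The difference between tissues in the change from 0.5 h was tested directly. At 6 h ZAT12 had changed by 1.49 ± 0.29 more in roots than in shoots (adjusted p = 0.0026; 3.04% of probe sets were called in this direction), and STZ by −0.40 ± 0.35 (adjusted p = 0.62). At 12 h the differences were 1.58 ± 0.29 for ZAT12 and 1.28 ± 0.35 for STZ (adjusted p = 0.00063 and 0.015; 10.4% of probe sets in this direction). At 24 h they were 1.19 ± 0.29 for ZAT12 and 2.05 ± 0.35 for STZ (adjusted p = 0.0041 and 0.00028; 15.5% in this direction). With 1 h as the baseline the 24 h differences were 1.76 and 2.17. The 12 h value for STZ lost its call without shoot 0.5 h replicate 2 (0.74, adjusted p = 0.08), root 0.5 h replicate 2 (1.18, adjusted p = 0.056) or root 12 h replicate 1 (1.07, adjusted p = 0.077).

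At 1 and 3 h no tissue difference in the change passed. At 3 h STZ had −1.06 ± 0.35 (adjusted p = 0.18) and ZAT12 −0.57 ± 0.29 (adjusted p = 0.43), where 1.59% of probe sets were called with a lower change in roots. Without shoot 0.5 h replicate 2 the value for STZ was −1.60 (adjusted p = 0.0051). At 1 h the values were −0.12 ± 0.35 and −0.57 ± 0.29 (adjusted p = 0.95 and 0.55), and 0.137% of probe sets were called with a lower change in roots.

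**Figure D4:**
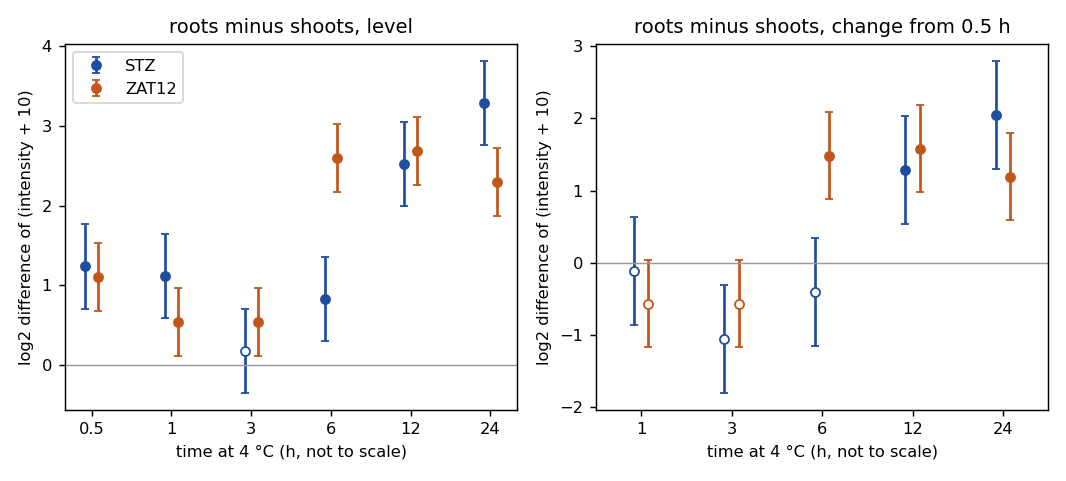
Roots minus shoots on the log2(intensity + 10) scale, with 95% confidence intervals, for the level at each time (left) and for the change from 0.5 h (right). Filled points have an adjusted p under 0.05; the level difference is 0.18 for STZ and 0.54 for ZAT12 at 3 h and is 3.29 for STZ and 2.30 for ZAT12 at 24 h.

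The order of the 12 groups by level is given here for each gene as a description. For STZ the order from the lowest was shoots at 24, 0.5, 12 and 1 h, roots at 0.5, 1 and 24 h, shoots at 6 h, roots at 12 h, shoots at 3 h, then roots at 3 and 6 h. Of its 11 neighbouring pairs 6 had overlapping arrays. These were shoots at 0.5 and 12 h, shoots at 1 h and roots at 0.5 h, roots at 1 and 24 h, roots at 24 h and shoots at 6 h, shoots at 6 h and roots at 12 h, and roots at 3 and 6 h. For ZAT12 the order was shoots at 0.5 h, roots at 0.5 h, shoots at 12, 1 and 6 h, roots at 1 h, shoots at 24 and 3 h, then roots at 3, 12, 6 and 24 h. Here 3 of 11 pairs overlapped: shoots at 1 and 6 h, roots at 1 h and shoots at 24 h, and roots at 3 and 12 h. With 2 arrays a group a pair without overlap is easily met, and its share among all probe sets was not counted. Such pairs were not always called by limma. Examples are STZ in shoots and roots at 3 h (adjusted p = 0.55) and ZAT12 in roots at 6 and 12 h (adjusted p = 0.41). The group means spanned 4.28 for STZ and 4.59 for ZAT12 on the log2 scale. All 4 highest groups of ZAT12 were roots, while shoots at 3 h were the third highest group of STZ.

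By sign alone, the array of a pair with more STZ had more ZAT12 in 6 of 6 root groups and 2 of 6 shoot groups. At 6 h in roots the arrays were all but tied, with differences of −0.001 for STZ and −0.04 for ZAT12. In the shoot groups where either pair was widest, the direction was shared. At 0.5 h replicate 1 was below replicate 2 by 1.08 for STZ and by 0.51 for ZAT12, and at 6 h it was above by 0.51 and 0.67. These differences have no test. The same count was not made over other probe sets, so the shared direction cannot be read as particular to these 2 genes.

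Likeness in course was measured by Pearson's r over the 12 group means of log2(intensity + 10), among 5753 other tested probe sets whose means spanned at least 2, as a description of groups that share arrays. STZ and ZAT12 had r = 0.74 over the 12 groups. Over the 6 root groups r was 0.85 and over the 6 shoot groups 0.57. The median r of all candidates was 0.16 with STZ and 0.21 with ZAT12, and ZAT12 ranked 154th for likeness to STZ.

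Genes with a course closest to that of STZ, chosen for that likeness, had a 3 h maximum in shoots and were lower there at 24 h than at 3 h. Among probe sets paired with 1 gene they were AT1G72950 (r = 0.97), AT2G41640 (0.97), AT4G27652 (0.96), AT5G28630 (0.95), AT2G27080 (0.95) and the tetraspanin gene TET8 (0.94). The intensity of AT2G41640 in shoots was 23.4 ± 6.24 (SD, n = 2) at 0.5 h, then 290 ± 76.3 at 3 h, and it ended at 14.5 ± 1.81. In roots the same times gave 59 ± 1.79, 341 ± 2.47 and 191 ± 35.4. TET8 differed in roots, where its 24 h level of 2210.4 ± 125 was above its 3 h level of 1377 ± 308. In shoots its 6 h mean of 1271 ± 260 was close to its 3 h mean of 1304 ± 106. For AT5G28630 the shoot means at 6 and 3 h were also close, at 277 ± 25.4 and 289 ± 127.

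Genes closest to ZAT12, chosen in the same way, were higher in roots and stayed up there. Among probe sets paired with 1 gene these were AT5G52750 (r = 0.92), AT5G11650 (0.92), AT3G62260 (0.91), AT5G66650 (0.90), AT5G66070 (0.89) and AT3G01830 (0.89). AT3G01830 had shoot means of at most 13.0. It met the filter for dim probe sets only through roots from 6 h on, where it is high, and the pseudocount bears on its course. In roots AT3G62260 had 63.3 ± 0.396 at 0.5 h, then 352 ± 81.7 at 3 h, and it ended at 543 ± 114, where the same times in shoots gave 44.9 ± 5.65, 95.5 ± 13.6 and 149 ± 43.3. AT5G66070 reached 881 ± 210 at 24 h in roots, from 128 ± 20.7 at 0.5 h. No gene was named under both members.

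**Figure D5:**
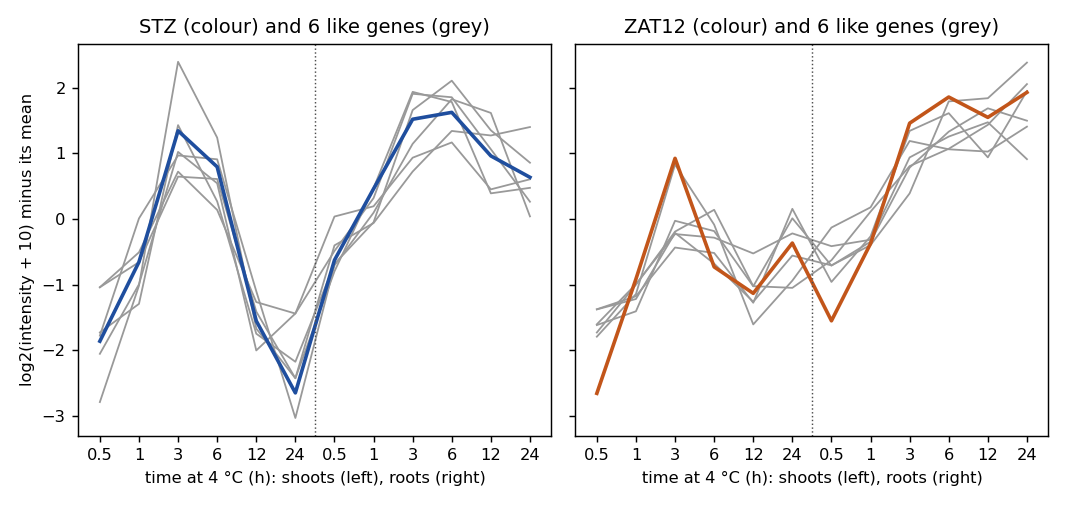
Course of STZ (left, blue) and ZAT12 (right, orange) with the 6 named genes most like each (grey), as log2(intensity + 10) of group means minus the mean of the 12 groups, shoots before the dotted line and roots after it. The grey genes were chosen by r, so a shared course follows from the choice. Those like STZ have a 3 h shoot maximum and a lower 24 h shoot level, with r from 0.94 to 0.97. Those like ZAT12 have high root levels, with r from 0.89 to 0.92.

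Other genes of the pathway were looked up by locus, in 6 lists, and few were paired with a single gene in the annotation and tested. There were 2 of 12 related zinc finger loci, 3 of 17 loci of the ICE1 and CBF cold pathway and 2 of 18 of reactive oxygen removal. Of 8 MAP kinase cascade loci, 7 EAR corepressors and 14 other early cold transcription factors, 0 were measured, so the CBF genes and the partners of the repressors were not analysed here.

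Of the related zinc finger loci, AT3G53600 was at most 1.62 on every shoot array and 0.787 and 0.402 on the root arrays at 0.5 h. In roots it then had means of 8.42 ± 1.48 at 3 h, 18.5 ± 0.439 at 6 h, 44.9 ± 15.2 at 12 h and 25.2 ± 10.7 at 24 h. It met the filter for dim probe sets only through late root arrays, where it is high, so these levels are given without a test. AT2G28200 met the filter at 0.5 h in both tissues, where it is high, and was lower at 12 h in both. Because the filter admits probe sets by such high groups, its falls from 0.5 h are also given without a test. The share of probe sets called lower was then 26.3% in shoots and 17.8% in roots, and centring on medians took the counts from 4229 to 2727 and from 2854 to 1419. The mean intensity of AT2G28200 went from 74.6 ± 6.73 to 13.4 ± 4.83 in shoots (−1.87 ± 0.23). In roots the 12 h mean was 24.8 ± 10.2 (−1.62 ± 0.23). At such levels the pseudocount sets the size of a change.

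Of the cold pathway list, EIN3, a transcription factor of ethylene signalling, rose at 24 h by 0.44 ± 0.12 in shoots and 0.52 ± 0.12 in roots (adjusted p = 0.0046 and 0.0018). SIZ1, a ligase that attaches SUMO to proteins such as ICE1, rose by 0.59 ± 0.12 at 6 h in shoots (adjusted p = 0.0019), where its 12 and 24 h changes of 0.29 and 0.13 did not pass (adjusted p = 0.068 and 0.41). In roots the 12 and 24 h rises of SIZ1 were 0.46 ± 0.12 and 0.34 ± 0.12 (adjusted p = 0.0094 and 0.03). AT4G16150 did not pass in any change from 0.5 h in either tissue. The list had 1 of 3 members higher in shoots and 2 of 3 in roots at 24 h, with medians of 0.13 and 0.34 against −0.20 and −0.21 over all probe sets, of which 19.2% and 15.5% were called higher. Of the reactive oxygen list, the thylakoid ascorbate peroxidase TAPX fell at 24 h in shoots, from 440 and 498 to 356 and 338 (−0.42 ± 0.12, adjusted p = 0.0084). At 12 h in shoots its change was also −0.42 ± 0.12 (adjusted p = 0.012), when 26.3% of probe sets were called lower. The stromal ascorbate peroxidase SAPX fell by 0.44 ± 0.15 at 6 h in shoots (adjusted p = 0.048), when 11.9% of probe sets were called lower. At 24 h the changes of SAPX were −0.04 in shoots and −0.10 in roots (adjusted p = 0.84 and 0.62). That list had 1 of 2 lower in shoots and 0 of 2 in roots at 24 h, where 34.3% and 32.5% of all probe sets were called lower. The values of these list genes were not recomputed under other scalings or without single arrays.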

How the data were processed

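Total RNA of shoots and roots was hybridised to Affymetrix ATH1 arrays, 24 in all, 2 for each of 12 groups named by tissue and time in the labels. The deposited intensities are MAS5 probe set signals, per the submitters' processing notes, and on every array the values trimmed by 2% at each end average 100. Of MAS5 neither the version nor the detection calls appear in the labels. The 64 control probe sets were left out. Of the 22746 others, 16073 reached an intensity of 30 on 2 or more arrays and were tested. In the platform annotation 13513 probe sets have 1 gene, 503 several and 8730 none. Names follow that annotation and the RefSeq table of assembly TAIR10.1.

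One limma model (limma 3.58.1, R 4.3.3; lmFit and eBayes) with 12 group means was fitted to log2(intensity + 10), with 12 residual degrees of freedom. It gave 29 comparisons: 10 changes from 0.5 h, 8 steps, 6 tissue differences in level and 5 tissue differences in the change. P-values were adjusted by Benjamini-Hochberg over all tested probe sets within a comparison, and an adjusted p under 0.05 counts as a call. The fit was tested on simulated data, of which no result is given here. Alternatives were other pseudocounts, scalings, filters, priors and baselines, fits within a tissue, a replicate block and leaving out arrays.

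The 2 genes, the pathway and marker lists and the comparisons were chosen with earlier results of these data known. The genes most like each member are the 6 probe sets with exactly 1 gene and the highest r, and up to 4 measured members of each list are named, by size of change. Promoter and protein sequences were not used here.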

Additional observations from a re-analysis of the deposited data

Results flagged for a closer look

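The 5 results below are listed because the change from 0.5 h differed between roots and shoots by a test of the difference itself. Values are on the log2(intensity + 10) scale, with adjusted p-values from limma. For ZAT12 the change in roots exceeded that in shoots by 1.49 at 6 h (adjusted p = 0.0026), by 1.58 at 12 h (adjusted p = 0.00063) and by 1.19 at 24 h (adjusted p = 0.0041). For STZ it did so by 1.28 at 12 h (adjusted p = 0.015) and by 2.05 at 24 h (adjusted p = 0.00028). Of all tested probe sets, 3.04% were called in this direction at 6 h, 10.4% at 12 h and 15.5% at 24 h. Such calls were thus common at 12 and 24 h. The 12 h value for STZ was 0.74 without shoot 0.5 h replicate 2. All 5 rest on the 0.5 h arrays of both tissues. With 1 h in their place the values were 2.05, 2.15 and 1.76 for ZAT12 and 1.401 and 2.17 for STZ.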

How the results depend on the processing

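Of 796 values recomputed under alternatives, 746 kept their direction and side of the threshold, 26 lost a call, 14 gained one and 10 changed sign. The cause of these changes was not tested unless a construction is named. With 1 h as the baseline, STZ in roots had 1.06 at 3 h, 0.50 at 12 h and 0.18 at 24 h, none called, and in shoots −0.90 at 12 h, while ZAT12 in shoots had 0.18 at 6 h and −0.22 at 12 h. With arrays centred on their medians, STZ had −0.53 at 24 h in shoots, 1.12 from 1 to 3 h in roots, and −0.036 at 3 h and 0.57 at 6 h for roots minus shoots, and ZAT12 had 0.27 at 1 h and 0.33 at 3 h for roots minus shoots. After quantile normalization STZ had 1.28 from 1 to 3 h and −0.97 from 6 to 12 h in roots, 0.82 for roots minus shoots at 3 h, and tissue differences in the change of 0.10 at 1 h and 0.17 at 6 h, and ZAT12 had 1.30 at 1 h in roots. The step of STZ from 1 to 3 h in roots was called at 1.05 with a pseudocount of 30, and at 1.06 with a filter at 100, with an intensity-dependent prior and in a fit of the root arrays alone, where fewer arrays or probe sets enter. The rise of ZAT12 at 1 h in roots was called at 1.18 with that prior, and that of STZ at 1 h in shoots (1.21) lost its call in a fit of the shoot arrays alone. The deviations of same-numbered arrays had r from −0.21 to 0.18 over 15 pairs of shoot groups (2 over 0.1) and from −0.45 to 0.33 over 15 of root groups (6 over 0.1). The numbers were not taken to pair the arrays, though these values do not show that the arrays are unpaired. Same-numbered shoot and root arrays were not compared, so a pairing across tissues was not checked. A replicate block within tissue changed no call of either gene (ZAT12 for roots minus shoots at 3 h had 0.54, adjusted p = 0.038). Leaving out single arrays gave ranges for STZ of 0.67 to 1.75 at 1 h, −0.23 to 0.85 at 12 h and −1.33 to −0.25 at 24 h in shoots, 0.92 to 1.20 from 1 to 3 h and −0.024 to 0.23 from 3 to 6 h in roots, and 0.58 to 1.09 for roots minus shoots at 6 h. Its tissue differences in the change then ranged from −0.66 to 0.42 at 1 h, −1.60 to −0.52 at 3 h, −0.94 to 0.13 at 6 h and 0.74 to 1.82 at 12 h. For ZAT12 the ranges were 0.53 to 0.55 at 1 h and 0.39 to 0.68 at 3 h for roots minus shoots, −0.74 to −0.068 from 6 to 12 h and 0.61 to 0.92 from 12 to 24 h in shoots. Counts of called probe sets moved by over 1.5 times at 1 h in shoots (453 against 205 from shoot arrays alone), from 1 to 3 h in roots (162 against 103 from root arrays alone), for the tissue difference in the change at 1 h (26 against 16 with the replicate block), and with 1 h as the baseline at 3 h (1238 against 571 in shoots, 393 against 162 in roots, 330 against 166 for the tissue difference). By direction, centring on medians took the lower counts from 4229 to 2727 at 12 h and from 5512 to 3481 at 24 h in shoots, from 2854 to 1419 and from 5222 to 2594 in roots, and the higher count at 24 h in roots from 2488 to 4036. A filter at 100 took the lower count at 24 h in shoots to 3666. Signal over background limits AT3G53600, AT1G72950 and AT3G01830 in shoots and ZAT12 in shoots at 0.5 h. There intensities lie near or under 30 and the pseudocount sets the size of a change.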
